A study of Rattus norvegicus with 18 samples.

Results

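Cells recognise foreign nucleic acid through a small set of sensor proteins, and 10 genes of that system were followed by name through the deposited table of 19880 genes. They were the sensors Ddx58, Ifih1, Dhx58, Tlr3, Zbp1 and Eif2ak2, the adaptors Mavs, Tmem173 and Myd88, and the kinase Tbk1. All 10 were found under these symbols, and all 10 passed the filter on low counts that 14870 genes passed. The cells were primary ventricular cardiomyocytes from Sprague-Dawley rats on postnatal day 2, and all of them, the controls included, had received phenylephrine at 20 µM for 24 h. Phenylephrine is an alpha-1 adrenergic agonist that induces hypertrophic growth. Infection was with adenovirus bearing sORF6, sORF7 or sORF8, which are short open reading frames, or with the control virus of that sORF. This gave 6 groups of 3 libraries, with 1 control group for each sORF. The labels do not give the peptide of any sORF, the amount of virus, or a group without virus. Nor do they state that replicates were independent cultures. The p-values therefore speak only to variation among these libraries, part or all of which could be technical.

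Ddx58 encodes RIG-I and Ifih1 encodes MDA5, helicases that bind viral RNA in the cytosol. Both pass the signal to Mavs, an adaptor on mitochondria, and Dhx58 encodes LGP2, a related helicase that modulates them. Tlr3 senses double-stranded RNA in endosomes, Tmem173 encodes STING, the adaptor of cytosolic DNA sensing, and Myd88 is the adaptor of most other Toll-like receptors and of the interleukin-1 receptor. The Mavs and STING routes meet at the kinase Tbk1, which activates the transcription factor Irf3 and so the type I interferon genes. Eif2ak2 encodes PKR, a kinase that halts translation when it binds double-stranded RNA, and Zbp1 binds Z-form nucleic acid and can start necroptosis through Ripk3. Several of these genes, among them Ddx58, Ifih1, Dhx58, Zbp1 and Eif2ak2, are known to be induced by interferon themselves.

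Interferon acts on many of its target genes through a promoter element whose core is a repeated GAAA, so the members' promoters were searched for these letters. RefSeq promoters of build GRCr8 were matched for 7 of the 10 members, from 250 bases before the gene's start to 50 after it. Ddx58, Dhx58 and Zbp1 had no entry. The letters GAAA, any 2 bases and GAAA again, on either strand, were found in 3 of the 7, those of Ifih1, Eif2ak2 and Myd88, and in 3.92% of all 33469 promoters in the table. The bases before the start are printed for these 3 genes and, as a member without a match, for Mavs, on the gene's strand with the match in capitals.

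Ifih1 (chr3:67683969-67684218, minus strand): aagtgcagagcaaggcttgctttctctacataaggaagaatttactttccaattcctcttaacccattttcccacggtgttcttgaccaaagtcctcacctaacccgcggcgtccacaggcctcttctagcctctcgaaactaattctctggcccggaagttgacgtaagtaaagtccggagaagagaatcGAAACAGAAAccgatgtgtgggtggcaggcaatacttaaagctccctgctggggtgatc
Eif2ak2 (chr6:21940904-21941153, plus strand): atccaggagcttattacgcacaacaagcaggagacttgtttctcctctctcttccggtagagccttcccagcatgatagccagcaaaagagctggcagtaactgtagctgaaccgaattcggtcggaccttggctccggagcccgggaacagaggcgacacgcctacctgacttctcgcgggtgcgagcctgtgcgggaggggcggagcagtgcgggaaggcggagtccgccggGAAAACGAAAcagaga
Myd88 (chr8:127956231-127956480, minus strand): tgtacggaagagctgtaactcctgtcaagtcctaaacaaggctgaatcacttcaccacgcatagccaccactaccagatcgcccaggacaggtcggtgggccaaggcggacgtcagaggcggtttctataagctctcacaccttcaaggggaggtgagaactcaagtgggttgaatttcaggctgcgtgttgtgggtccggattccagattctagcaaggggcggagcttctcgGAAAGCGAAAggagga
Mavs (chr3:138904562-138904811, plus strand): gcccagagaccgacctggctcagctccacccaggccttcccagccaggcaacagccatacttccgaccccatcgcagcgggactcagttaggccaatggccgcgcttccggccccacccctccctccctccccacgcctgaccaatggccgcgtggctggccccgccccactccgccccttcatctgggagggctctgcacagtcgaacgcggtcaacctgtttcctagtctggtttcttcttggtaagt

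The match lay at positions -59 to -50 in Ifih1 and at -16 to -7 in both Eif2ak2 and Myd88, counted from the start. The letters TTC, any 3 bases and GAA, a core of the interferon-gamma activated element, were found in 1 of the 7 promoters, that of Myd88 at -22 to -14, where they overlap its repeated-GAAA match, and in 8.87% of all promoters. The letters GGGA, any 2 bases and TTCC, a core of the NF-kB element, were found in 0 of the 7 and in 1.3% of all promoters. These matches describe letters in 1 window and not sites that a factor was measured to bind.

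In the 9 control-virus libraries the members spanned a wide range of transcript level, compared per length as FPKM. Eif2ak2 was the highest, with a mean of 35.0 FPKM and a range of 20.6 to 49.4 over the 9 libraries. Ddx58 followed at 21.1 (6.42 to 36.5), Tbk1 at 13.1 (11.1 to 14.6) and Mavs at 10.5 (7.30 to 12.7). Ifih1 and Myd88 lay at 9.08 and 9.07, and Dhx58 at 5.38. Tmem173 and Tlr3 were low, at 1.92 and 1.88, and Zbp1 was close to undetected at 0.228. Eif2ak2 was the highest member and Zbp1 the lowest in each of the 9 libraries. The places between them depended on the control group: Ddx58 was second in the sORF6 and sORF7 controls (23.2 and 32.8 FPKM) but, at 7.39, lay below Tbk1 (14.3), Myd88 (10.2) and Mavs (7.97) in the sORF8 controls.

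Depth was similar throughout, at 15697177 to 17658137 counts per library, and common biological variation between libraries of a group was 6.90%. Cardiomyocyte markers dominated, with Actc1 at a median of 14200 FPKM, while markers of fibroblasts and smooth muscle were also present, such as Col1a1 at 897 and Acta2 at 1100. Leukocyte markers were low but not absent, with Lyz2 at a median of 25.7 and Ptprc at 1.5 FPKM. In bulk RNA, fewer cells of a type and less RNA per cell cannot be told apart. Control replicate 2 of the sORF6 experiment and control replicate 1 of the sORF7 experiment stood apart from their groups in earlier results of these data, and counts that rest on them are also given without them. Values below are normalised CPM, counts relative to the scaled library total, in the order of replicates 1, 2 and 3. Genes were tested with edgeR's quasi-likelihood test, adjusted over all 14870 genes by the Benjamini-Hochberg method and called at an adjusted p under 0.05. The shares of all genes given below belong to that test and threshold. An unadjusted p under 0.05 is a looser threshold, and shares of all genes for it, or for DESeq2 and limma, are not reported here.

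With sORF6, the RNA helicases Ddx58, Ifih1 and Dhx58 and the kinase gene Eif2ak2 fell 2.49-fold to 6.02-fold below their control level, and no member rose. Of the 10 members, 4 were lower and 0 higher, where 2.88% of all genes tested were lower, 0.968% were higher and 3.85% were called in either direction. At an unadjusted p under 0.05, 6 members were lower and 0 higher, and DESeq2 and the limma fit on log2(FPKM + 1) each had 4 lower and 0 higher. The members' median log2 fold change was -0.82, beside 0.00 over all genes tested. The adaptors, Tlr3 and Tbk1 did not pass the test.

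Ddx58 (chr5:56486584-56538360, plus strand, Rnor_6.0) stood at 20.8, 22.4 and 18.9 CPM with sORF6 and at 131, 81.2 and 99.1 with the control virus. Its 3 sORF6 libraries lay within a narrow band far below all 3 controls, of which replicate 1 was the highest. The log2 fold change was -2.33 ± 0.18 (SE, n = 3 against 3), a 5.02-fold lower level with an edgeR adjusted p of 1.12e-07. Dhx58 (chr10:88599722-88611562, minus strand) had the largest fall among the called members, from 17, 10.5 and 14.2 to 2.68, 2.39 and 1.85 CPM. No control library came near the sORF6 libraries, and the log2 fold change was -2.59 ± 0.21 (edgeR adjusted p 1.90e-07). Ifih1 (chr3:48554113-48604161, minus strand) stood at 11.3, 12.6 and 9.47 CPM with sORF6 and at 49.7, 27.6 and 42.3 in the controls. Control replicate 2 was again the lowest control, and even it was above every sORF6 library. The log2 fold change of Ifih1 was -1.84 ± 0.21 (edgeR adjusted p 1.21e-05).

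Eif2ak2 (chr6:1428845-1466193, minus strand), the double-stranded RNA-activated kinase PKR, fell from 166, 125 and 151 to 60.2, 61.1 and 57.0 CPM. The sORF6 libraries differed little among themselves and did not overlap the controls. Its log2 fold change of -1.31 ± 0.10 was smaller than those of the 3 helicases but came with the smallest edgeR adjusted p of the members, 6.16e-08. Zbp1 (chr3:171276062-171292062, minus strand) was counted 1, 0 and 4 times with sORF6 and 12, 3 and 5 times in the controls. These counts overlap, and with so few reads no difference was detectable (edgeR adjusted p 0.244). Without the 2 control libraries named above, 4 members were still called, and the log2 fold change of Ddx58 was -2.48. Among fits that left out 1 library, the falls were smallest without sORF6 control replicate 1. They were then -2.12 for Ddx58, -1.65 for Ifih1, -2.42 for Dhx58 and -1.22 for Eif2ak2, and 4 members were called.

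No adaptor was called with sORF6. Mavs (chr3:123775916-123790572, plus strand) stood at 35.3, 38.0 and 35.6 CPM against 35.9, 36.3 and 33.2, groups that overlap. Its log2 fold change was 0.05, with a 95% confidence interval of -0.10 to 0.19. Tmem173 (chr18:28529537-28535828, minus strand), the STING gene, stood at 3.61, 5.20 and 4.27 against 4.72, 4.35 and 4.27 CPM, with an interval of -0.41 to 0.36. Its low count leaves a wider interval than that of Mavs. Myd88 (chr8:128022512-128027462, minus strand) lay at 16.6, 15.7 and 17 against 19.3, 17 and 19.0 CPM, without overlap before rounding. Its log2 fold change was -0.17, with an unadjusted p of 0.0439 and an edgeR adjusted p of 0.309. Tbk1 (chr7:63655247-63687978, minus strand) lay at 37.4, 36.0 and 35.7 against 37.7, 39.6 and 37.9 CPM, a log2 fold change of -0.08 with an interval of -0.21 to 0.05. Tlr3 (chr16:50015826-50049051, plus strand), the endosomal receptor, lay at 4.48, 5.37 and 6.06 against 6.44, 5.97 and 7.58 CPM. Its groups overlapped, and the interval of its log2 fold change ran from -0.67 to 0.01, so a moderate fall could not be told from none.

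**Figure D1:**
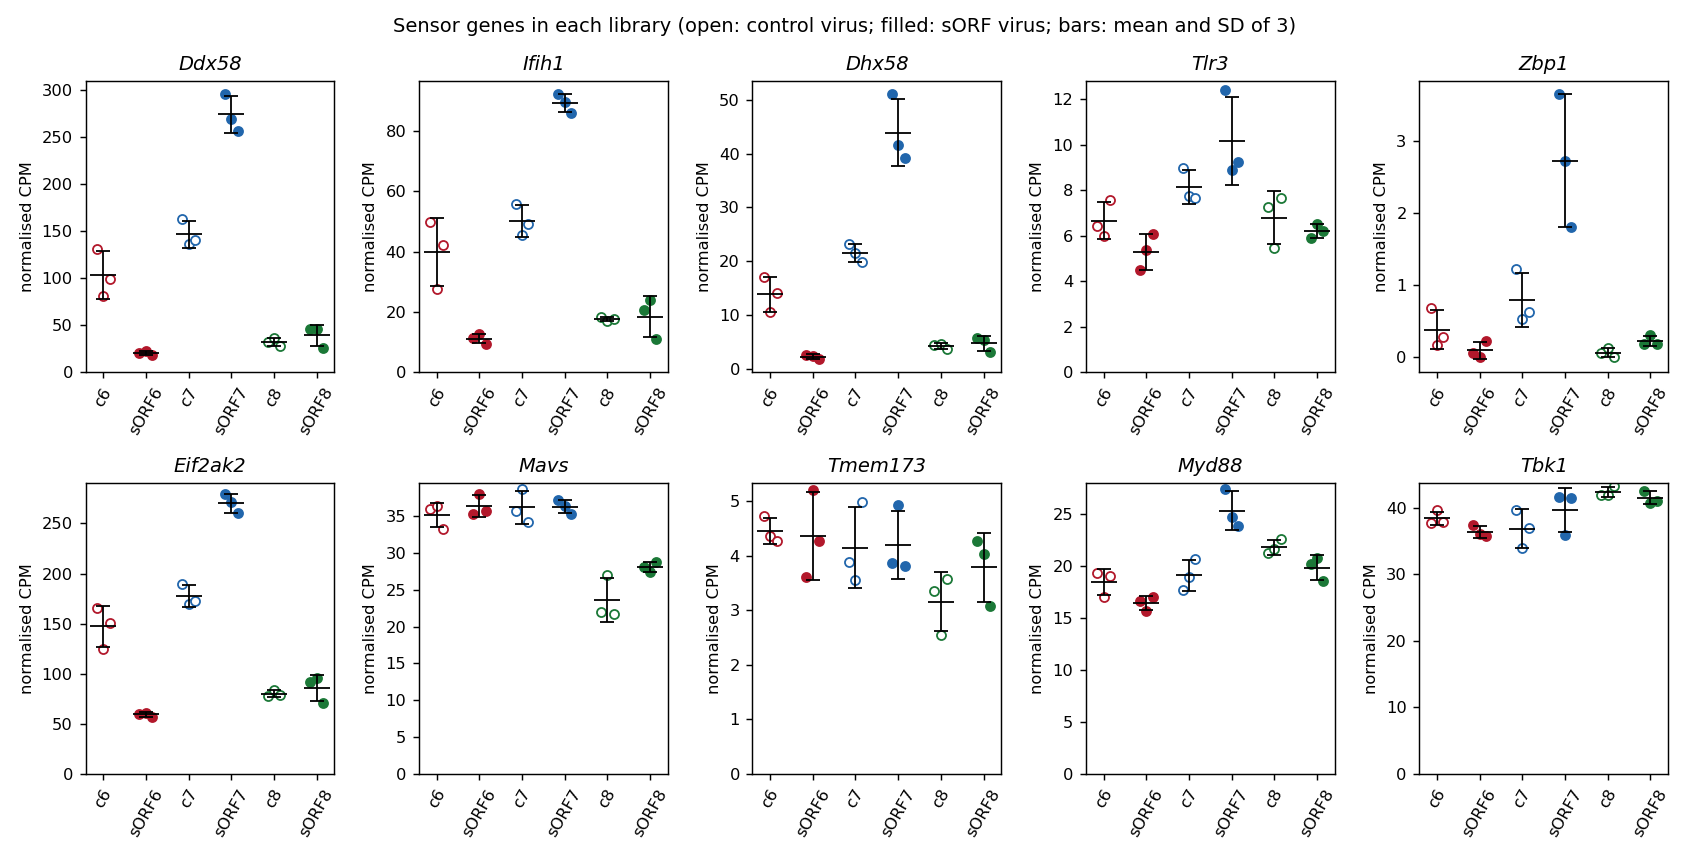
Normalised CPM of the 10 members in each library on linear axes, with open points for control virus (c6, c7 and c8), filled points for sORF virus, and bars for the mean and SD of 3 libraries. The 3 helicases and Eif2ak2 have their lowest group mean with sORF6 and their highest with sORF7, as do Tlr3 and Myd88 over a smaller range. Mavs, Tmem173 and Tbk1 change little between an sORF and its own control. Mavs and Tmem173 differ most with sORF8, at log2 fold changes of 0.25 and 0.26, not called by edgeR.

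With sORF7 the same 3 helicase genes and Eif2ak2 moved the other way, and Zbp1 and Myd88 rose as well. Of the 10 members, 6 were higher and 0 lower, where 4.12% of all genes tested were higher, 3.66% were lower and 7.77% were called in either direction. At an unadjusted p under 0.05, 7 members were higher and 0 lower. DESeq2 called 5 higher and 0 lower, giving no adjusted p for Zbp1, while the limma fit on log2(FPKM + 1) had 6 and 0. The members' median log2 fold change was 0.50, beside 0.00 over all genes tested.

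Ddx58 stood at 296, 270 and 257 CPM with sORF7 and at 163, 136 and 141 with its control virus. All 3 sORF7 libraries lay above all 3 controls, and the log2 fold change was 0.90 ± 0.15 (SE, n = 3 against 3, edgeR adjusted p 9.16e-04). Dhx58 stood at 51.0, 41.5 and 39.2 against 23.2, 21.5 and 19.8 CPM, without overlap. Its level was 2.04-fold that of the controls, a log2 fold change of 1.03 ± 0.15 with an edgeR adjusted p of 2.48e-04. Ifih1 stood at 92.1, 89.6 and 86.0 against 55.7, 45.6 and 49.0 CPM. Its sORF7 libraries were close together and above every control, with a log2 fold change of 0.83 ± 0.18 and an edgeR adjusted p of 0.00586. Eif2ak2 stood at 279, 271 and 260 against 190, 170 and 173 CPM. It too separated fully, with a log2 fold change of 0.60 ± 0.09 and an edgeR adjusted p of 2.86e-04.

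Myd88 was the 1 adaptor among the 10 that rose with sORF7, from 17.7, 18.9 and 20.7 to 27.4, 24.7 and 23.8 CPM. The groups did not overlap, and the log2 fold change was 0.40 ± 0.07 (edgeR adjusted p 0.00160). Zbp1 was counted 65, 48 and 32 times with sORF7 and 21, 9 and 11 times in the controls. Every sORF7 library was above every control, and the log2 fold change was 1.78 ± 0.47 (edgeR adjusted p 0.0234). The call for Zbp1 rests on few reads and was lost in 4 of 6 fits that left out 1 library of the experiment, with adjusted p of 0.123 without sORF7 replicate 1, 0.0620 without sORF7 replicate 2, 0.113 without control replicate 2 and 0.0920 without control replicate 3. Without the 2 control libraries that stood apart, 6 members were called.

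The other 4 members did not pass the test with sORF7. Mavs lay at 37.1, 36.3 and 35.3 against 35.7, 38.6 and 34.2 CPM, with a 95% confidence interval of its log2 fold change of -0.14 to 0.15. Tbk1 lay at 41.7, 35.9 and 41.5 against 39.7, 33.9 and 37.0 CPM, with an interval of -0.02 to 0.23. For these abundant genes the intervals leave room only for small changes. Tmem173 lay at 3.87, 4.92 and 3.80 against 3.89, 3.56 and 4.98 CPM, with an interval of -0.37 to 0.41. Tlr3 lay at 12.4, 8.89 and 9.23 against 8.99, 7.75 and 7.68 CPM, a log2 fold change of 0.32 with an edgeR adjusted p of 0.235. Its high value came from sORF7 replicate 1, the library in which 9 of the 10 members were at the top of their group.

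With sORF8 edgeR called 0 of the 10 members, where 3.75% of all genes tested were called, 2.03% higher and 1.72% lower. At an unadjusted p under 0.05 there was 1 member, Mavs, and DESeq2 and limma on log2(FPKM + 1) also called 0. Mavs stood at 28.1, 27.4 and 28.7 CPM with sORF8 and at 22, 27.0 and 21.7 with its control virus. The groups did not overlap, although control replicate 2 came close, and the log2 fold change was 0.25 ± 0.07 (SE, n = 3 against 3, edgeR adjusted p 0.0701). Without that control library it was 0.36, with an edgeR adjusted p of 0.00656.

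The helicases and Eif2ak2 varied more between libraries with sORF8 than in any other group, with coefficients of variation up to 36.0% for Ifih1. Ddx58 lay at 45.7, 46.4 and 26.4 against 32.4, 36.3 and 28.0 CPM, and Ifih1 at 20.5, 23.9 and 11 against 18.2, 17 and 17.7. Dhx58 lay at 5.72, 5.42 and 3.19 against 4.54, 4.59 and 3.70 CPM, and Eif2ak2 at 91.7, 95.4 and 71.1 against 77.7, 84.0 and 78.4. In each of these 4 genes sORF8 replicate 3 was below all 3 controls while replicates 1 and 2 were above them. Their log2 fold changes were 0.29, 0.07, 0.16 and 0.10, and the interval of Ddx58 ran from -0.10 to 0.68. Zbp1 was counted 3, 5 and 3 times against 1, 2 and 0 times, too few for a comparison. Tlr3, Tmem173, Tbk1 and Myd88 had log2 fold changes of -0.13, 0.26, -0.03 and -0.13, none of them called.

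**Figure D2:**
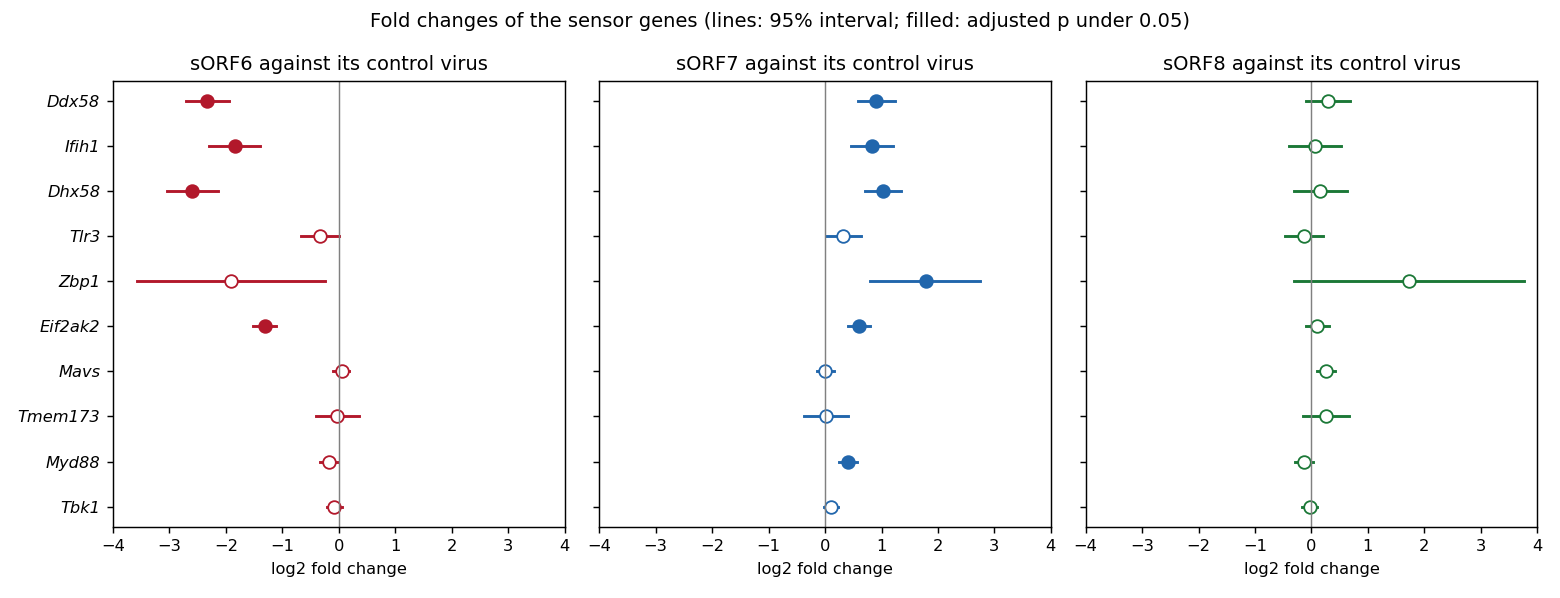
Log2 fold change of each member against its own control virus in the 3 experiments, with lines for 95% confidence intervals from the edgeR fit and filled points for an adjusted p under 0.05. Ddx58, Ifih1, Dhx58 and Eif2ak2 lie below 0 with sORF6 and above 0 with sORF7, and their intervals include 0 with sORF8.

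The responses were also compared with each other, as the difference between log2 fold changes of experiments that share no library. Between sORF6 and sORF7, 6 of 10 members differed, all lower with sORF6, beside 11.2% of all genes tested, 6.27% lower and 4.88% higher. Ddx58 differed by -3.23 ± 0.24 (edgeR adjusted p 2.56e-08), Dhx58 by -3.62 ± 0.26 and Ifih1 by -2.67 ± 0.28. For the 3 helicases these differences are the sum of a fall with sORF6 and a rise with sORF7. Eif2ak2 differed by -1.92 ± 0.13, and Myd88 by -0.57 ± 0.11 (edgeR adjusted p 0.00127), although Myd88 was not called with sORF6 alone. Mavs, with a difference of 0.05 and an interval of -0.16 to 0.25, was not called. Tlr3 differed by -0.65 (edgeR adjusted p 0.0657), which became -0.81 (0.0426) without the 2 control libraries that stood apart and -0.74 (0.0487) without sORF7 replicate 2. Zbp1 was called as well (edgeR adjusted p 0.0120), on few reads, but not without sORF6 control replicate 1 (0.0814). Between sORF6 and sORF8, 4 of 10 members differed, all lower with sORF6, beside 3.69% of all genes, 2.82% lower and 0.868% higher. Dhx58 differed by -2.75, Ddx58 by -2.62, Ifih1 by -1.91 and Eif2ak2 by -1.42.

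Between sORF7 and sORF8, 2 of 10 members differed, both higher with sORF7, beside 7.72% of all genes, 3.80% higher and 3.92% lower. Eif2ak2 differed by 0.50 ± 0.13 (edgeR adjusted p 0.0261) and Myd88 by 0.54 ± 0.11 (edgeR adjusted p 0.00316). The differences of Ddx58, Ifih1 and Dhx58 were larger, at 0.61, 0.77 and 0.87, but so was their spread, and edgeR's adjusted p were 0.139, 0.108 and 0.0563. The helicases rose with sORF7 and were not called with sORF8, while edgeR's test of the difference between these responses did not pass for them. It passed for Dhx58 with DESeq2 (adjusted p 0.00756) and with limma on log2(FPKM + 1) (0.0166), so the call depends on the tool. Without the 2 control libraries that stood apart, 4 members differed, with Ifih1 and Dhx58 added. Eif2ak2 lost its call in 5 of 12 fits that left out 1 library, with adjusted p of 0.0663 without sORF7 replicate 1, 0.0643 and 0.0513 without sORF7 control replicates 2 and 3, 0.0580 without sORF8 replicate 3 and 0.0703 without sORF8 control replicate 2. Calls were gained for Dhx58 (0.0467) without sORF8 replicate 1, Ifih1 (0.0470) without sORF8 replicate 2 and Mavs (-0.36, adjusted p 0.0190) without sORF8 control replicate 2.

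The 3 control groups did not share a common level of the sensors. A joint edgeR F test over the control groups called 8 of 10 members, beside 38.4% of all genes tested, so differing controls were common in this table. The 3 helicases and Eif2ak2 differed by more than most genes. The mean of Ddx58 was 104, 147 and 32.2 CPM in the sORF6, sORF7 and sORF8 controls, a 4.54-fold ratio of highest to lowest. The ratio was 5.02 for Dhx58, 2.84 for Ifih1 and 2.22 for Eif2ak2, beside a median of 1.2 over all genes tested, and 5.97% of genes reached at least 2. In all 4 genes the sORF8 controls were lowest and the sORF7 controls highest. Zbp1 was called too (edgeR adjusted p 0.00479), with counts of 12, 3 and 5, of 21, 9 and 11, and of 1, 2 and 0 in the sORF6, sORF7 and sORF8 controls. Mavs was also lowest in the sORF8 controls, at 23.6 CPM against 35.1 and 36.2. Tbk1 and Myd88 were called with small ratios of 1.15 and 1.18, and both lost the call without any 1 of the sORF8 control libraries (edgeR adjusted p 0.0727 to 0.121 and 0.0607 to 0.147), Tbk1 also without sORF7 control replicate 2 or 3 (0.0858 and 0.0587) and Myd88 also without sORF6 control replicate 2 (0.0712). Tlr3 and Tmem173 were not called (edgeR adjusted p 0.251 and 0.104).

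Over all 6 groups, the helicases and Eif2ak2 followed 1 order of group means: sORF6, sORF8 control, sORF8, sORF6 control, sORF7 control and sORF7. The libraries of neighbouring groups did not overlap for Ddx58, Dhx58 and Eif2ak2, except between sORF8 and its control. For Ifih1 the sORF6 and sORF7 controls overlapped as well. The sORF6 level of Ddx58, a mean of 20.7 CPM, was thus below even the low sORF8 controls at 32.2. The labels give no date or batch, so experiment and any batch cannot be told apart. The tests therefore set each sORF only against its own control, and the order of groups across experiments is a description.

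**Figure D3:**
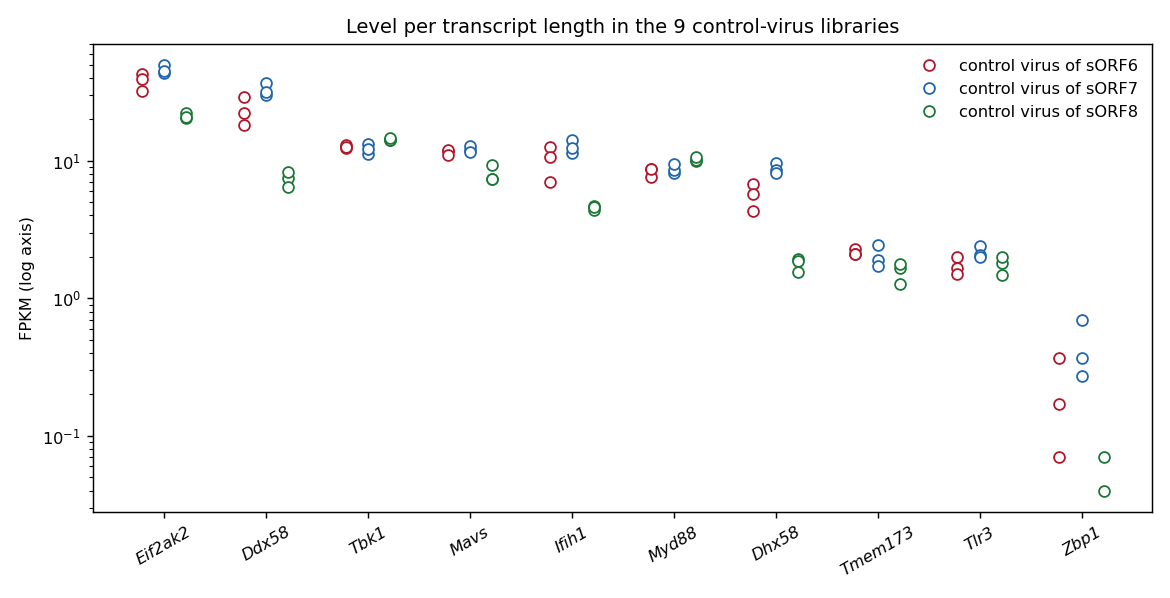
FPKM of the members in the 9 control-virus libraries (log axis), coloured by experiment, 1 point per library, with genes ordered by their mean. The sORF8 controls lie lowest for Ddx58, Ifih1, Dhx58, Eif2ak2 and Mavs, and highest, by a small margin, for Tbk1 and Myd88. The 1 sORF8 control library with Zbp1 at 0 is not drawn.

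Within groups, Ddx58, Ifih1, Dhx58 and Eif2ak2 also tended to lie high or low together in a library. This set of 4 was chosen after its values were seen. In 12 of 18 libraries all 4 lay on the same side of their group means. In sORF6 control replicate 2 their log2 CPM deviated from the group mean by -0.33, -0.49, -0.37 and -0.23, in the order named. In sORF8 replicate 3 the deviations were -0.53, -0.66, -0.52 and -0.26. Mavs deviated by 0.05 and 0.03 in these 2 libraries and Tbk1 by 0.05 and -0.01. Other members were low there too: Myd88 deviated by -0.11 and -0.10, Tlr3 by -0.15 and 0.00, Tmem173 by -0.03 and -0.28, and the sparsely counted Zbp1 by -0.65 and -0.16. These libraries were the lowest of their group for 7 and 6 of the 10 members.

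**Figure D4:**
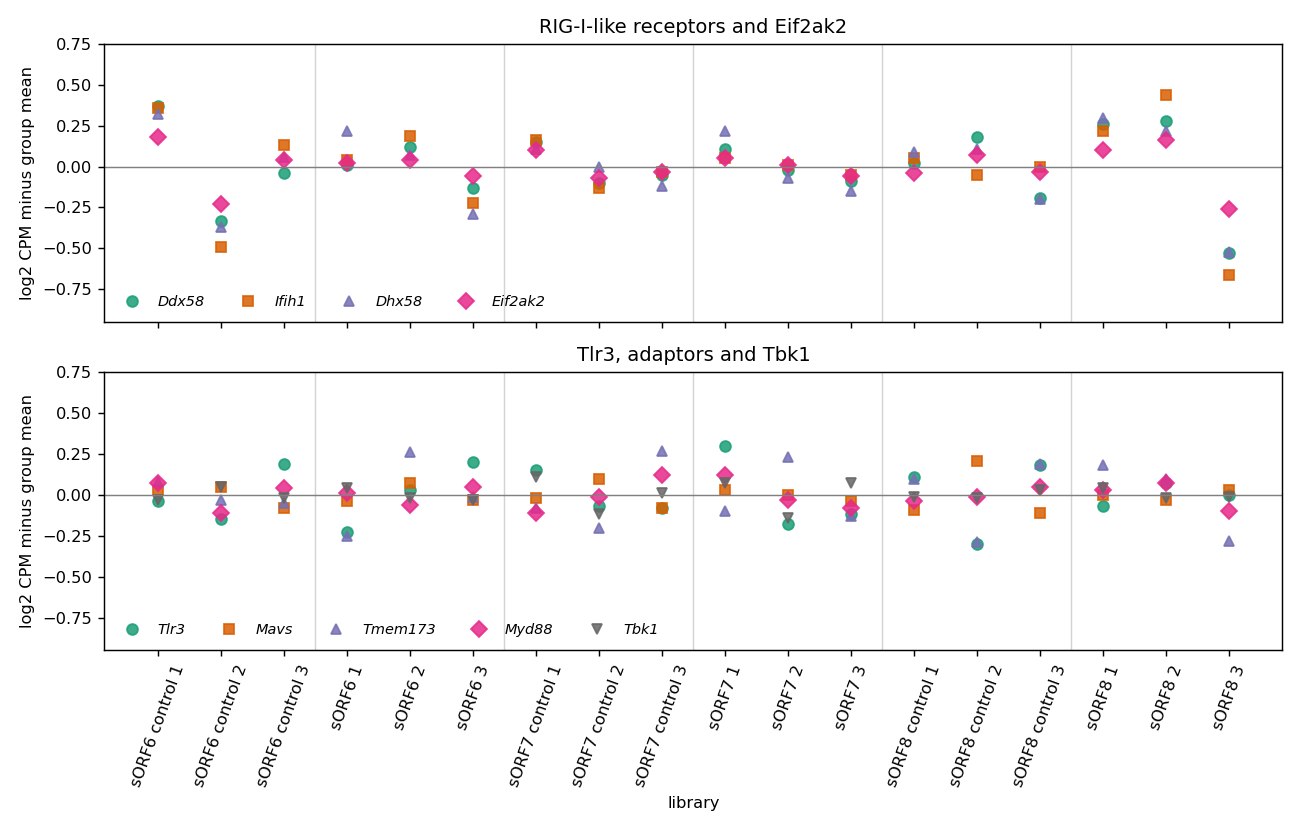
Log2 normalised CPM of each library minus its group mean, for the 3 helicases and Eif2ak2 (upper panel) and for Tlr3, the adaptors and Tbk1 (lower panel); Zbp1 is left out for its low counts. The upper genes move together, most in sORF6 control replicates 1 and 2 and in the sORF8 libraries. The lower genes do not all shift together there, although Tlr3 and Myd88 are also low in sORF6 control replicate 2, and Tmem173 and Myd88 in sORF8 replicate 3.

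The genes most like each member over the 18 libraries were ranked by Pearson r of log2 CPM, as a description, since the 18 libraries form 6 groups and r mostly reflects their means. Ddx58 was most like Parp9, Eif2ak2 and Dhx58, and Ifih1 was most like Dtx3l, Eif2ak2 and Herc6, all with r of 0.99 or above. Dhx58 and Eif2ak2 both had Ddx58 and Irgm among their closest 3. Zbp1 was most like Ascc3, Lgals9 and C2, each at 0.94, and Tlr3 was most like Ripk3 at 0.91. The adaptors had other partners. Mavs was most like Kpna2, Hrc and Srl, each at 0.96, Tbk1 like Dnajc7 at 0.90 and Tmem173 like Slc46a1 at 0.80.

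The rest of the sensing pathway was described from lists of other sensors, adaptors and kinases, positive and negative regulators, genes downstream of Zbp1 and Eif2ak2, and interferons with their receptors and signalling factors. Several listed genes are themselves induced by interferon. With sORF6, 8 of 22 other sensors fell and 0 rose, where 2.88% of all genes tested were lower and 0.968% higher, with 9 lower and 0 higher at an unadjusted p under 0.05, and 8 by DESeq2 and 6 by limma lower. The list's median log2 fold change was -0.19. Oas1a and Oasl, members of the 2'-5'-oligoadenylate synthetase family, fell with log2 fold changes of -3.25 ± 0.27 and -2.73 ± 0.20, and both have close paralogs that could share reads. Ddx60, a helicase linked to RIG-I signalling, fell by 2.27 on the log2 scale (± 0.25). Cgas, the cytosolic DNA sensor upstream of STING, fell with a log2 fold change of -0.89 ± 0.14 (edgeR adjusted p 6.43e-04), from a mean of 2.74 to 1.46 FPKM. Tlr7, an endosomal sensor of single-stranded RNA, fell with -0.88 ± 0.22 (edgeR adjusted p 0.0238), while Tlr9 and Aim2, both sensors of DNA, were under 0.3 FPKM in every group mean and were not called.

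Among adaptors and kinases, 1 of 24 fell with sORF6, a share near the 2.88% of all genes tested, and the list's median log2 fold change was -0.02. The gene was Irf7, the factor that amplifies interferon induction, at a log2 fold change of -3.19 ± 0.22. Its mean went from 37.9 to 4.12 FPKM. Irf3, Ticam1, the adaptor of Tlr3, and Ikbke, the kinase related to Tbk1, had log2 fold changes of 0.03, -0.02 and -0.01, none called. Like Mavs and Tbk1 among the members, these 3 relay genes lay close to their control level. Of the positive regulators 4 of 20 fell (median -0.05), among them Ifit3 (-2.84), Zc3hav1 (-0.97) and Usp18 (-3.34), which stands in that list although it is known to restrain interferon signalling. Of the negative regulators 4 of 24 fell (median 0.00), among them Tnfaip3 (-0.68), Irak3 (-0.44) and Adar (-0.50), the RNA-editing enzyme that keeps own RNA from being sensed. Mlkl, the effector of necroptosis downstream of Zbp1, was the 1 of 12 downstream genes that fell, at -0.57 ± 0.09 (list median -0.01). Of 14 interferon receptors and signalling factors 5 fell (median -0.09), among them Irf9 (-1.60) and Stat2 (-1.24).

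With sORF7 most genes of each list were not called, and those called were higher with 1 exception, where 4.12% of all genes tested were higher and 3.66% lower. Of the other sensors 5 of 22 rose and 0 fell (median log2 fold change 0.07), also with 6 higher and 0 lower at an unadjusted p under 0.05 and with 5 and 0 by DESeq2 and by limma. Oasl rose from a mean of 12.2 to 41.4 FPKM (log2 fold change 1.74 ± 0.13), Oas1a had 1.39 ± 0.18 and Ddx60 1.27 ± 0.18. Cgas rose with 0.69 ± 0.13 (edgeR adjusted p 0.00252), while Tlr7 had 0.14 and was not called. Irf7 (1.2 ± 0.17) and Tbkbp1, which encodes a protein that binds Tbk1 (0.32 ± 0.07), were the 2 of 24 adaptors and kinases that rose (list median 0.04). Irf3, Ticam1 and Ikbke had 0.03, 0.27 and 0.10 and were not called. Of the positive regulators 5 of 20 rose and 1 fell (median 0.09), the latter Ctsk at -0.29 (edgeR adjusted p 0.0446), a protease. Of the negative regulators 5 of 24 rose (median 0.03), among them Nlrc5 (1.14), Adar (0.32) and Tnfaip3 (0.25). Downstream of Zbp1 and Eif2ak2, 3 of 12 rose (median 0.04): Ripk3 (0.52 ± 0.10), Mlkl (0.42 ± 0.09) and Ppp1r15a (0.30 ± 0.05), which directs the dephosphorylation of the factor that PKR phosphorylates. Of the interferon receptors and signalling factors 4 of 14 rose (median 0.05), among them Irf1 (0.67) and Stat2 (0.70).

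With sORF8 edgeR called 0 of 22 other sensors, 0 of 12 downstream genes and 0 of 14 interferon receptors and signalling factors. Of all genes tested 3.75% were called, so 0 calls in lists this short lie near that share. DESeq2 and limma also called 0 in each. At an unadjusted p under 0.05 these lists held 3, 4 and 3 genes. In the remaining lists 1 of 24 adaptors and kinases rose, 1 of 20 positive regulators rose and 1 fell, and 1 of 24 negative regulators fell. Counts this low in short lists also lie near the 3.75% of all genes tested, and the changes were small. Traf3, a ubiquitin ligase between Mavs and Tbk1, rose with a log2 fold change of 0.31 ± 0.07 (edgeR adjusted p 0.0135). Hsp90b1 rose with 0.17, Tomm70 fell with -0.22 and Pcbp2, which is known to promote Mavs degradation, fell with -0.16. Cgas, at -0.02, was not called. The interferon genes themselves were hardly detected: Ifnb1 had at most 7 reads in any library and, like Ifna1, Ifna2 and Ifnk, was below the filter.

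**Figure D5:**
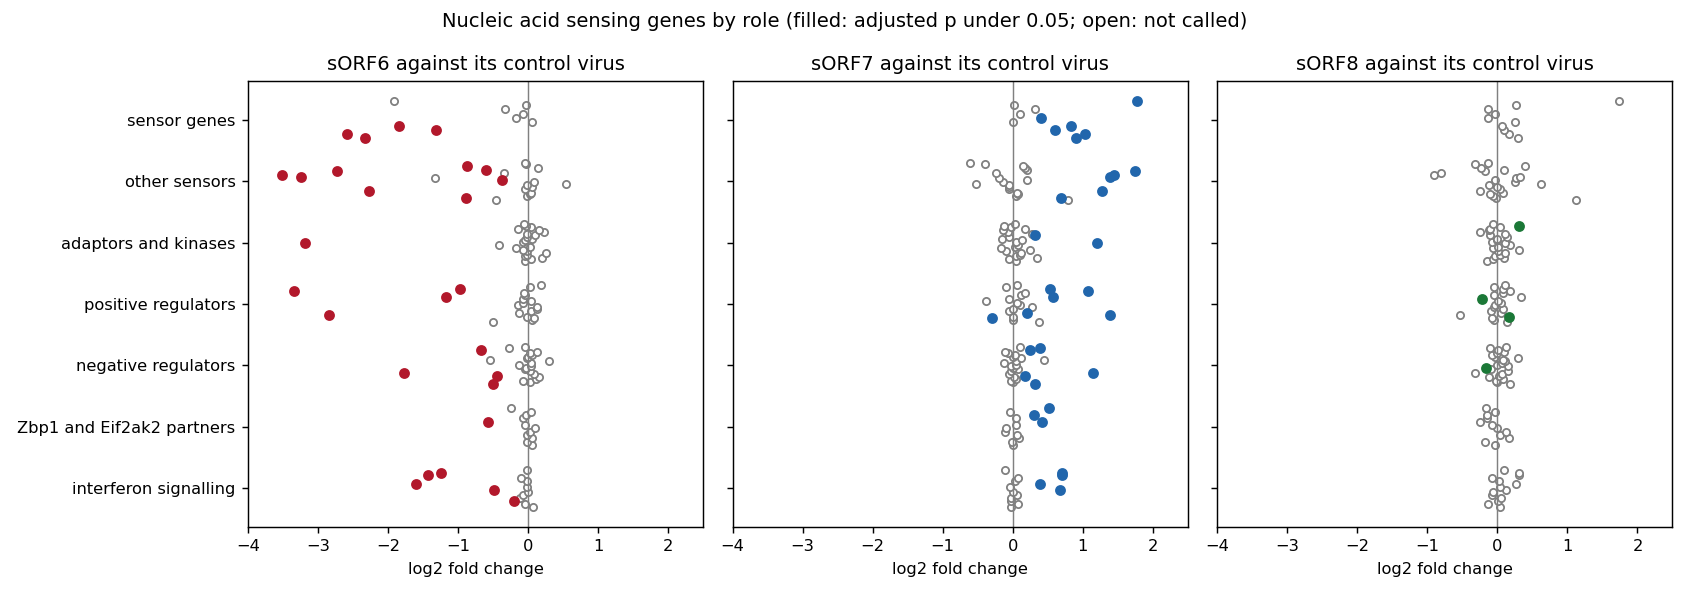
Log2 fold change of every gene of the member set and the pathway lists in the 3 experiments, 1 point per gene, filled where the adjusted p was under 0.05. Called genes lie below 0 with sORF6 and almost all above 0 with sORF7, and few are called with sORF8.

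Markers of cell types were set beside these results. The summed FPKM of 9 leukocyte markers in the table ran from 64.7 to 74.6 in the sORF6 controls and from 61.4 to 67 with sORF6, overlapping. Of 8 tested leukocyte markers 2 were lower with sORF6, beside 2.88% of all genes tested. It ran from 51.8 to 59.4 in the sORF7 controls and from 50.6 to 56 with sORF7, overlapping. Of these 8 markers 2 were lower and 0 higher with sORF7, beside 3.66% and 4.12% of all genes tested. Lower too were 4 of 10 cardiomyocyte and 3 of 9 fibroblast markers, with 0 higher in either list, while 0 of 8 smooth muscle markers were called. The sum of 10 cardiomyocyte markers ran from 31000 to 33900 in the sORF7 controls and from 28600 to 29400 with sORF7, without overlap. In the sORF8 experiment it ran from 22900 to 23100 in the controls and from 27200 to 27300 with sORF8. There 6 of 10 cardiomyocyte markers were higher, beside 2.03% of all genes tested, and Mavs was raised but not called. In the sORF6 experiment the cardiomyocyte sums overlapped, at 35100 to 35500 against 31200 to 35800. Beside the fall of the sensors there, the summed FPKM of fibroblast markers was higher with sORF6 (1700 to 1790 against 1550 to 1690), as was that of Schwann cell markers (6.35 to 7 against 5.13 to 5.37), and that of smooth muscle markers was lower (1830 to 1930 against 1970 to 2080), each without overlap. These sums weigh the most abundant markers most. Single markers were also tested by edgeR with sORF6, where 0.968% of all genes tested were higher and 2.88% lower. Of 10 cardiomyocyte markers 2 were higher and 1 lower (median log2 fold change 0.09). Of 9 fibroblast markers 1 was higher and 1 lower (median log2 fold change 0.06). Of 8 smooth muscle markers 0 were higher and 1 lower (median 0.02), and of 2 tested Schwann cell markers 0 were called (median 0.37). The part of these markers in the sensor results was not tested.

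Some member genes share their place in the genome with a neighbour on the other strand. In the table's coordinates all 14657 bases of Mavs lie within Rnf24, all 6292 bases of Tmem173 overlap Ube2d2, and 864 bases of Myd88 overlap Acaa1a. Reads of a gene and its antisense partner cannot be told apart unless counting was stranded, which the sources used here do not state. None of the 3 partners was called by edgeR in any of the 3 comparisons, with adjusted p from 0.274 upward. Ube2d2, at a median of 86.1 FPKM, was far more abundant than Tmem173.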

How the data were processed

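RNA sequencing of 18 libraries was analysed, 3 in each of 6 groups taken from the sample titles. The authors deposited 1 table of 19880 genes. Its estimated counts come, per the submitters' processing notes, from tools that include HISAT2 2.0.4, RSEM 1.2.12 and DESeq2 1.4.5 on Rnor_6.0, named without roles. The FPKM values the authors deposited were used to compare levels between genes. The authors' deposited log2 fold changes and q-values, in columns whose headers name degseq per the file headers, were not used.

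Estimated counts were rounded, filtered with filterByExpr (14870 genes kept), scaled by TMM and fitted in R 4.3.3 by edgeR 4.0.16, with limma 3.58.1 and DESeq2 1.42.0 as alternatives and with 1 mean per group over 18 libraries and 12 residual degrees of freedom. Each SE is the absolute log2 fold change divided by the square root of the F statistic of its test. It thus rests on the spread estimated over all 18 libraries and not only on the 3 against 3 compared. Intervals are 95% and were computed from these SE, and tests are two-sided. Normalised CPM are counts relative to the TMM-scaled total, and log2 CPM used a prior count of 2. RSEM divides reads among similar transcripts, so genes with close copies are uncertain. Depth was 15697177 to 17658137 counts per library. On simulated counts for the sORF6 comparison over 14870 genes, edgeR recovered 63% of genes changed 1.5-fold and 79% of those changed 2-fold, and called 3 of 14470 unchanged genes. These counts were drawn independently from the fitted spread, with 1 mean for all groups apart from the changes put in. They held no libraries that stood apart and no wide differences between control groups, so they do not give the error rate in these data. Libraries of a group differed by more than sampling noise, so none was counted as a duplicate.

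The members, lists and tests were chosen with earlier results of these data known. Named genes are all 10 members, the 3 called genes with the smallest p per list and direction, and Cgas, Tlr7, Tlr9, Aim2, Ticam1, Irf3, Ikbke, Adar and Ifnb1. Some genes that meet this rule are not reported here. The markers and other pathway genes were described by the same fit. Of 193 listed names, 8 were not matched in the table. Alternatives were other scalings, no filter, DESeq2, limma on log2(FPKM + 1) and log2(FPKM + 0.1), a replicate block, each experiment alone and each library left out. Promoters were read from RefSeq (GRCr8).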

Additional observations from a re-analysis of the deposited data

Results flagged for a closer look

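Differences between experiments that passed edgeR's quasi-likelihood test of the difference itself, on the log2 scale, were as follows. The sORF6 response was below the sORF7 response in Ddx58 (-3.23), Dhx58 (-3.62), Ifih1 (-2.67), Eif2ak2 (-1.92) and Myd88 (-0.57). It was also below it in Zbp1 (-3.68), a value that rests on 0 to 65 reads per library and depends on the prior count. The sORF6 response was below the sORF8 response in Ddx58 (-2.62), Dhx58 (-2.75), Ifih1 (-1.91) and Eif2ak2 (-1.42). The sORF7 response was above the sORF8 response in Myd88 (0.54) and Eif2ak2 (0.50).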

How the results depend on the processing

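The 4 calls with sORF6, the 4 between sORF6 and sORF8, 5 of 6 with sORF7 and 5 of 6 between sORF6 and sORF7 held in every alternative run that gave an adjusted p. The exception in the latter 2 was Zbp1, whose adjusted p between sORF6 and sORF7 was 0.0814 without sORF6 control replicate 1. With sORF7, DESeq2 gave it no adjusted p. Between sORF7 and sORF8 the number of members called was 3 with DESeq2 (Dhx58 added), 4 with limma on log2(FPKM + 1) (Dhx58 and Zbp1 added), 4 with the replicate block (Ddx58 at an adjusted p of 0.0382 and Dhx58 at 0.0116 added) and 4 without the 2 control libraries that stood apart, an alternative chosen after seeing the data, and 1 to 3 with 1 library left out. With sORF8 it was 0 to 1 with 1 library left out. Among the control groups 6 of 8 calls held throughout, with Tbk1 and Myd88 as exceptions. The numbers of all genes called, 572, 1156 and 558 for sORF6, sORF7 and sORF8, were 335, 689 and 865 from the 6 libraries of each experiment alone, and 368 to 527, 681 to 954 and 264 to 382 with 1 library left out, lowest without sORF6 replicate 1, sORF7 replicate 1 and sORF8 replicate 2. For sORF8 it was 988 without the 2 control libraries, neither of which belongs to the sORF8 experiment. They enter that comparison only through what the single fit shares over libraries: the filter, the scaling and the estimate of spread. The sORF8 calls thus depend on libraries of the other experiments. The cause of these differences in number was not tested. Directions that turned belonged to values that were not called: Ifih1 with sORF8 (-0.02 with limma on log2(FPKM + 0.1), -0.16 to 0.33 with 1 library left out), Tmem173 with sORF6 (-0.17 to 0.09), with sORF7 (-0.11 to 0.17, and -0.02 without the 2 control libraries) and between sORF6 and sORF7 (-0.20 to 0.08), and Zbp1 between sORF7 and sORF8 (-0.81 to 0.57). Directions were compared after rounding to 2 decimals, a rule set after the first output was seen. Same-numbered libraries of an experiment deviated with weak correlations of -0.08 to 0.06. In the sORF6 experiment the same-numbered control was the best match of each replicate (0.06, 0.04 and 0.05, against at most 0.00, 0.00 and 0.01). In the other experiments it was so for replicate 2 only. Correlations this weak, over groups of 3, can neither show nor exclude pairing. With the replicate block, 522, 1022 and 459 genes were called, and 4, 6 and 0 members. Depth limits Zbp1 most.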
